A study of Mus musculus with 6 samples.

Results

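The insulin-like growth factor (IGF) axis was examined in the renal cortex of male mice as a set of 10 genes: the ligand gene Igf1, the receptor genes Igf1r and Ghr, the acid-labile subunit gene Igfals, and the binding protein genes Igfbp1, Igfbp2, Igfbp3, Igfbp4, Igfbp5 and Igfbp7. All 10 were found by gene name among the non-control probes of the array, with 21 probes in all, and 9 of them had at least 1 tested probe among 16592 genes with a symbol. The set was chosen by the group difference of Igfals and of its binding proteins on these same arrays, so the differences of the members below are a description and carry no test. RNA of 3 cortex samples per group was hybridised, each to its own one-colour array. The first group is labelled db/m, the lean mice that carry a single db allele of the leptin receptor gene Lepr, and the second db/db, the obese and diabetic mice with both alleles mutated. All mice were 16 weeks old by their labels, and an 8 weeks treatment with HQD, the herbal Huangqi decoction, is stated alike for every sample. The paper describes the arrays in other terms, as treated against non-treated db/db mice, so genotype and treatment cannot be told apart by name, and the groups are called here by their labels. The db mutation is carried by every cell of the body, so effects that arise in the kidney and effects of the obese, diabetic body on it cannot be told apart.

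IGF1 is a peptide hormone that the liver releases when growth hormone binds its receptor, GHR, and signals through JAK2 and STAT5. In blood, most IGF1 travels in a complex with IGFBP3 or IGFBP5 and the acid-labile subunit, which Igfals encodes and which keeps the hormone in the circulation. In the kidney, IGF1 acts through the receptor IGF1R on tubules and glomeruli, and locally made binding proteins hold it away from the receptor or release it, while IGFBP7 binds IGFs only weakly and is known as a protein of vessel walls and matrix.

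Promoter sequences from RefSeq on the GRCm38.p6 build are shown for the 4 genes on which the results turn, because the array reports RNA levels only and these windows hold the DNA in front of each start site. Each window of 300 bases holds 250 bases before the start site and 50 after it, written 5′ to 3′ on the strand of the gene. The 3 windows of Igfals lie on chromosome 17, of which the upstream one is chr17:24877594-24877893 and the middle one chr17:24877981-24878280, and the window of Igfbp1 is chr11:7197537-7197836. Igfbp2, at chr1:72824230-72824529 on the plus strand, and Igfbp5, at chr1:72874816-72875115 on the minus strand, are adjacent genes that point at each other. Capitals mark matches on either strand to TTCNNNGAA (bound by STAT proteins), GTAAACA (forkhead proteins), CAAAACA (the insulin response core of the Igfbp1 promoter), GGGCGG (the GC box) and TATAAA (the TATA box).
Igfals, upstream start: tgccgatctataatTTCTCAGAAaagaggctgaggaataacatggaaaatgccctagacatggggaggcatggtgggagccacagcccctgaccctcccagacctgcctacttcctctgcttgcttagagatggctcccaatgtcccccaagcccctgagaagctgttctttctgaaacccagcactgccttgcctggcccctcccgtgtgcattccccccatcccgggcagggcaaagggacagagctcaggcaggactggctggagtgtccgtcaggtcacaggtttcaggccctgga
Igfals, middle start: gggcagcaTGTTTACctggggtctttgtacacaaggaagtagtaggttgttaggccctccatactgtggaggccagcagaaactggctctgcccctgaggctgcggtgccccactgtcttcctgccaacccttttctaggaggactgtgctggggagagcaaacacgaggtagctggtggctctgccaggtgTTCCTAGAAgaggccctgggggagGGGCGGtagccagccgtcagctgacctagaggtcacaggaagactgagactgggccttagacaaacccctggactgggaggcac
Igfbp1: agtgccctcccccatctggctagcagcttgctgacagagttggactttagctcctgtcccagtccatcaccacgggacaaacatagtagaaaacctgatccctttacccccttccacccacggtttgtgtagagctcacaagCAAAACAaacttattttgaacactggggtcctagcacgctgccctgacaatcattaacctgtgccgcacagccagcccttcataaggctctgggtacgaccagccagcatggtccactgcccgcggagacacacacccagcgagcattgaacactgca
Igfbp2: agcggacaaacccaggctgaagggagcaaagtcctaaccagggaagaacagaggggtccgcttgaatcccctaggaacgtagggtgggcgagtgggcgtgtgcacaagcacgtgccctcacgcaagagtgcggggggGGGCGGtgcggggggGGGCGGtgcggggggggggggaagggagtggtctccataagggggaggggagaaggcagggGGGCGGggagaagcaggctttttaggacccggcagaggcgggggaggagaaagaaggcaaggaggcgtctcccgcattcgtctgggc
Igfbp5: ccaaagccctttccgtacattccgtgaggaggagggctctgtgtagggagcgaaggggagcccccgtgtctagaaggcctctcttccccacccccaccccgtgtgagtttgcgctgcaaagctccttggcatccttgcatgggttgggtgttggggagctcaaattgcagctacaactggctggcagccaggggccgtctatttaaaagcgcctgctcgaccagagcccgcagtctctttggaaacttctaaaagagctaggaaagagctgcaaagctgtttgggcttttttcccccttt

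TTCNNNGAA was found in 2 of the 14 promoter windows of the members, both of them windows of Igfals, and in 8.3% of 32851 RefSeq windows of the same length. GTAAACA was found once, in the middle Igfals window, and in 3.65% of all windows. CAAAACA was found in the Igfbp1 window alone and in 6.28% of all windows. GGGCGG was found in 6 of the 14 windows, with 3 matches in the Igfbp2 window, and in 35.7% of all windows. TATAAA was found in 2 of the 14, against 13.6% of all, and the Igfbp5 window held none of the 5 letter strings. The Igfbp2 window had a GC content of 67.0%, and that of its neighbour Igfbp5 had 56.3%. A match marks letters, not a bound site.

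Values are log2 intensities relative to the 75th percentile of each array, and each difference is the db/m-labelled mean minus the db/db-labelled mean, with its standard error (SE) from limma. Replicate 2 of labelled db/m and replicate 3 of labelled db/db were each nearer to the other than to their own group. Their correlation across the tested probes was 0.9917, against 0.9816 and 0.9876 between the former and its own group and 0.987 and 0.9879 between the latter and its own. Slide 1 held replicate 1 of labelled db/m together with replicate 3 of labelled db/db, while slide 2 held labelled db/m replicates 2 and 3 and slide 3 held labelled db/db replicates 1 and 2. Between 51.6% and 59.0% of probes were well above background on an array. The proximal tubule, podocyte, endothelial and thick limb markers of a renal cortex were all measured above background. For Lepr 1 of 6 probes was tested, with a difference of 0.42 (SE 0.29) that was 0.76 without replicate 3 of labelled db/db. The tested probe gave 1.38, 1.60 and 1.18 in labelled db/m and 0.60, 0.64 and 1.65 in labelled db/db. Its highest value was thus in labelled db/db replicate 3. The db allele changes the splicing of Lepr, so this probe does not check the genotype. In whole cortex, fewer cells of a type and less RNA per cell cannot be told apart.

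Igfals was lower in labelled db/m than in labelled db/db. Its only probe, A_51_P277088, lies in mm9 at chr17:25018251-25018310 and is annotated to the Igfals messenger RNA. Normalised log2 values were -3.51, -2.36 and -2.81 in labelled db/m replicates 1 to 3 and -1.95, -1.94 and -0.12 in labelled db/db replicates 1 to 3. The groups did not overlap, and labelled db/db replicate 3 stood far above every other array. The scanner intensities were 90.5, 149 and 136 against 234, 227 and 866, all well above background and none saturated or flagged. The difference was -1.56 (SE 0.54, n = 3 and 3), a 2.95-fold lower mean, and 4 of 16592 genes had a lower difference. The set was chosen by this difference, so its rank is a description only.

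A large part of that size came from labelled db/db replicate 3. Without it the difference was -0.95, while leaving out any other array gave values from -1.86 to -1.25. Between the arrays that shared slide 1 it was -3.38, and this pair holds both the lowest and the highest Igfals value. The SD of Igfals among the labelled db/db arrays was 1.05, larger than in 99.4% of genes. Normalised against the median, by quantiles or with the values of the authors' matrix, the difference was -1.75, -1.70 and -1.67, and after normexp background correction it was -1.18.

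**Figure D1:**
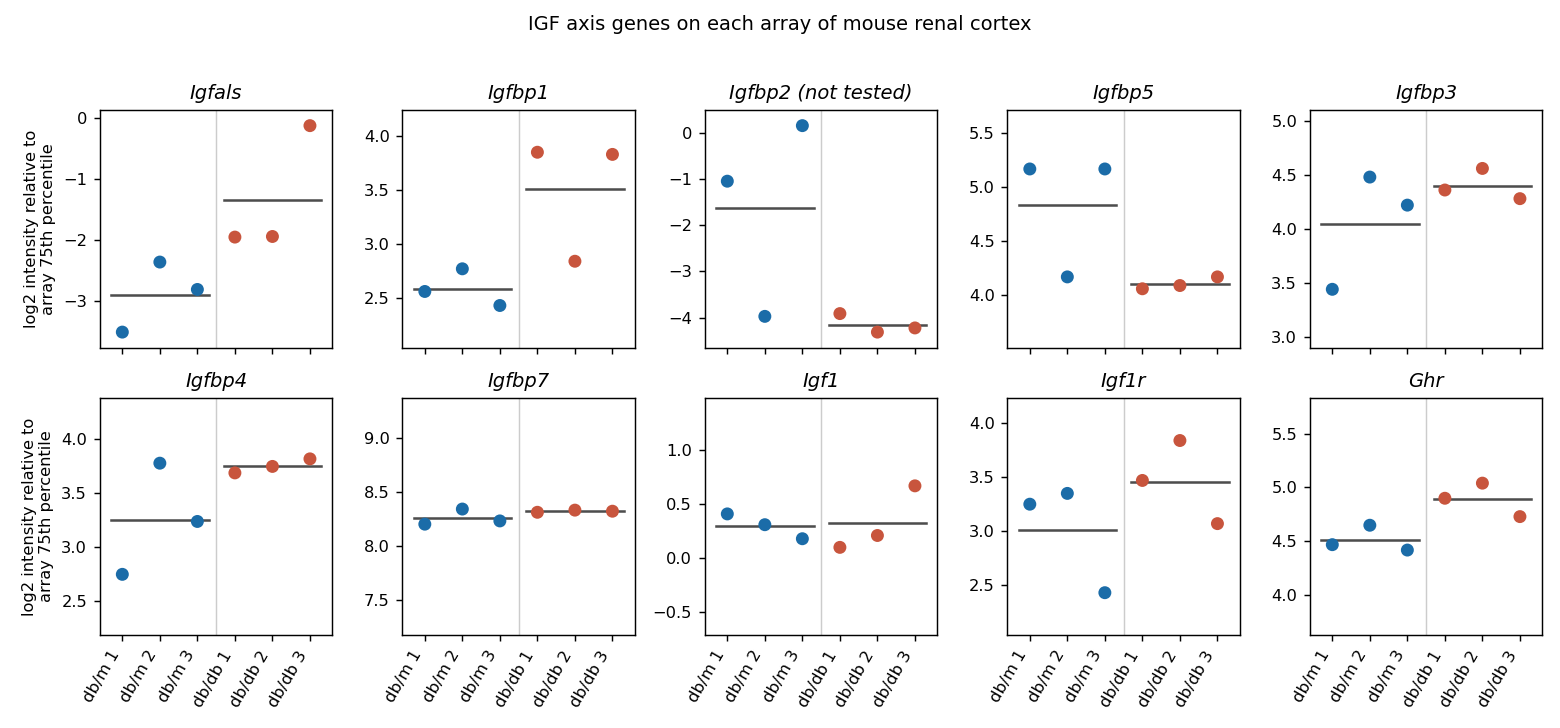
Each panel plots 1 gene, with the array by its label on the horizontal axis and the log2 intensity relative to the 75th percentile of the array on the vertical axis, every panel with a scale of its own. Blue points are arrays labelled db/m, red points arrays labelled db/db and grey lines group means, and Igfals at -0.12 in labelled db/db replicate 3 and Igfbp2 at -1.05 and 0.15 in labelled db/m replicates 1 and 3 stand apart from the other arrays of their gene.

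Hepatocytes are the main source of circulating acid-labile subunit, and hepatocyte markers were mostly lower in labelled db/m as well. Of 14 markers, 9 were tested and 8 of these were lower in labelled db/m, with a median difference of -0.65 beside -0.04 over all genes. At an unadjusted limma p under 0.05, 4 were lower and 1 was higher, beside 9.46% and 6.15% of all genes, and none passed after adjustment. Of the 4, the fibrinogen chain genes Fga (-0.68, SE 0.22), Fgb (-1.03, SE 0.18) and Fgg (-1.06, SE 0.19) made up 3, and renal tubules can also express these. The summed level of the list, on the log2 scale, was 3.86 to 4.15 in labelled db/m and 4.31 to 4.51 in labelled db/db. The separation of the sums rested on Fgg, since without it they were 3.60 to 3.81 and 3.80 to 4.12 and the groups overlapped. A sum is weighted to the brightest genes. The mean log2 level of the 9 tested markers, Fgg among them, was -1.02 to -0.69 in labelled db/m and -0.39 to -0.29 in labelled db/db. The defining gene Alb, albumin, had a difference of -0.26 (SE 0.27), and Apoa1, Ahsg, F2, Cps1 and Hpx did not pass the filter for testing. In labelled db/db replicates 1 to 3 the summed marker level was 4.31, 4.51 and 4.50, and without Fgg it was 3.80, 3.99 and 4.12. Igfals was at -1.95, -1.94 and -0.12 on these arrays. The part of hepatocyte transcripts in the Igfals difference was not tested.

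The genes beside Igfals on the chromosome did not share the size of its difference. By probe position the neighbours Fahd1 and Hagh lie before Igfals and Nubp2 and Spsb3 after it. They were chosen after the Igfals values were seen. Their differences were -0.36, -0.22, -0.35 and -0.10, all of the sign of Igfals. Across the 6 arrays the genes with the pattern most like Igfals, among 16591 others, were Loxhd1 (Pearson r = 0.982), Gm32232 (0.972), Cep85 (0.966), A630091E08Rik (0.965) and Gpr3 (0.964), which all had their highest value in labelled db/db replicate 3. Of these, Cep85 had a difference of -1.02 (SE 0.50) and the other 4 lay between -0.28 and -0.16. With 6 points and 1 array far from the rest, such a correlation mostly describes that array.

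Igfbp1, a binding protein that insulin represses in liver and kidney, was also lower in labelled db/m. Its probe A_51_P447545 (mm9 chr11:7102442-7102501) gave 2.56, 2.77 and 2.43 in labelled db/m and 3.85, 2.84 and 3.83 in labelled db/db. The difference was -0.92 (SE 0.28), a 1.89-fold lower mean. The groups did not overlap, but labelled db/db replicate 2 came within 0.07 of labelled db/m replicate 2, and replicates 1 and 3 carried the difference. It ranged from -1.27 to -0.75 over the 13 other settings. Igfals and Igfbp1 were both high in labelled db/db replicate 3, and Igfbp1 alone was also high in replicate 1, where Igfals was at -1.95.

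Igfbp2 and Igfbp5, the adjacent pair on chromosome 1, were high in labelled db/m replicates 1 and 3 and low in replicate 2. Igfbp2, a binding protein of epithelia and fetal tissues, had 1 probe, A_55_P2056729 (mm9 chr1:72898677-72898736), with values of -1.05, -3.97 and 0.15 in labelled db/m and -3.91, -4.31 and -4.22 in labelled db/db. This probe was well above background on 2 of 3 and 1 of 3 arrays, so it was not tested and only the measured means are given, which differed by 2.52. The intensities of labelled db/m replicates 1 and 3 were 497 and 1060, whereas the other 4 arrays lay between 43.9 and 60.1. With the arrays not above background set to the lowest signal that was, the difference was 2.38. Without labelled db/m replicate 2 it was 3.69, without replicate 3 it was 1.64, and after normexp background correction 1.66.

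Igfbp5, the binding protein that can also carry the acid-labile subunit, followed the same arrays at a much higher signal. Its brightest probe A_52_P281702 (mm9 chr1:72904829-72904888) gave 5.17, 4.17 and 5.17 in labelled db/m and 4.06, 4.09 and 4.17 in labelled db/db. Labelled db/m replicate 2 was thus level with the labelled db/db arrays, at 0.06 above their mean. The difference was 0.73 (SE 0.27), and 1.06 without that array. The second probe, A_66_P101782, gave 1.99, 0.74 and 2.02 against -0.01, 0.16 and 1.13, a difference of 1.16 (SE 0.43), with labelled db/m replicate 2 below labelled db/db replicate 3. The correlation between Igfbp2 and Igfbp5 over the 6 arrays was 0.97. Of the genes taken as their other neighbours, Rpl37a and Tns1 had differences of -0.09 and -0.36, and Ankar and Tnp1 did not pass the filter. The Tns1 probe lies farther off, at mm9 chr1:73956848-73956907.

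Markers of the inner medulla were high on the same arrays. Slc14a2 encodes urea transporters of the inner medulla, Aqp4 a water channel of collecting ducts, and Akr1b3 and Slc5a3 the enzyme and the carrier that supply organic osmolytes. These 4 genes were chosen after the Igfbp2 values were seen. Their summed level was 6.20 and 5.72 in labelled db/m replicates 1 and 3, against 3.50 in replicate 2 and 3.71 to 3.81 in labelled db/db. Akr1b3 was at 5.71, 2.84 and 5.35 in labelled db/m and at 2.91 to 3.18 in labelled db/db. Urothelial markers, of which 3 of 7 were tested, summed to 1.35, -0.18 and 2.28 in labelled db/m and to 0.85, -0.43 and 0.04 in labelled db/db. Of the 3, Upk1a and Krt5 were lower in labelled db/m replicate 2 than in replicates 1 and 3. Krt20 went the other way, at -2.96, -1.67 and -3.36, with its highest value of all arrays in replicate 2. Upk1b, Upk2, Upk3a and Upk3b did not pass the filter, and the part of medullary or urothelial RNA in the Igfbp2 and Igfbp5 values was not tested.

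**Figure D2:**
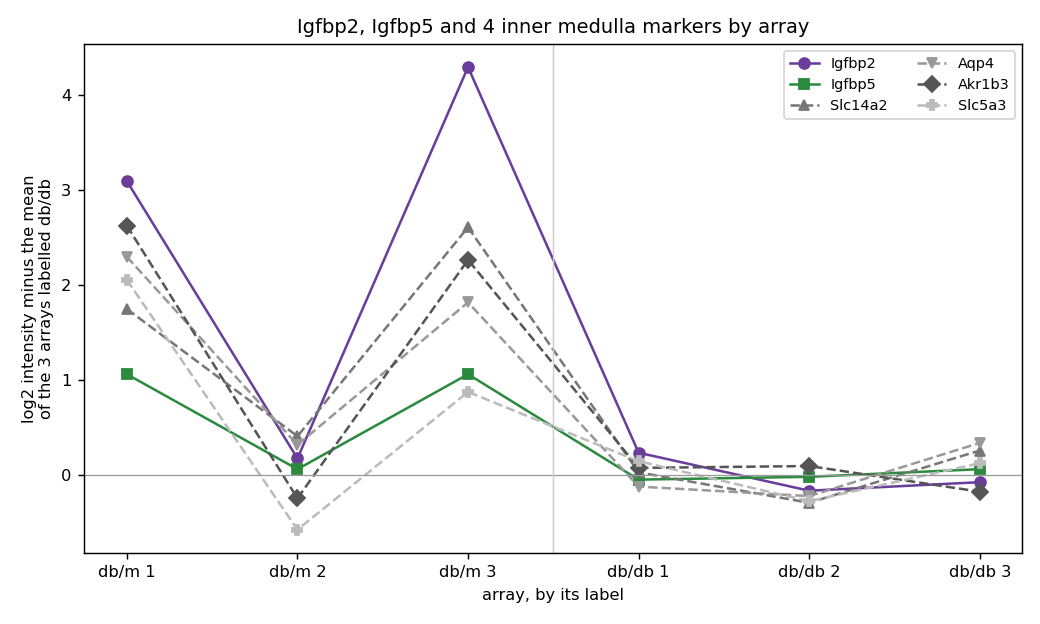
The log2 intensity of Igfbp2, Igfbp5 and 4 inner medulla markers, minus the mean of the 3 arrays labelled db/db, is drawn on the vertical axis for each array on the horizontal axis, with 1 line per gene. All 6 lines are high in labelled db/m replicates 1 and 3, and in replicate 2 Igfbp5 lies 0.06 and Igfbp2 0.18 above the labelled db/db mean.

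Igfbp3 and Igfbp4 were lowest in labelled db/m replicate 1. Igfbp3, the main carrier of IGF1 in blood and a product of endothelium in the kidney, had a brightest probe A_55_P2803213 (mm9 chr11:7106193-7106252) with values of 3.44, 4.48 and 4.22 in labelled db/m and 4.36, 4.56 and 4.28 in labelled db/db. The groups overlapped, and the difference of -0.35 (SE 0.27) was -0.05 without labelled db/m replicate 1, -0.57 without replicate 2 and -0.84 within slide 1. A second Igfbp3 probe, A_55_P1992715, was above background on 1 array and was not tested. Igfbp4, an inhibitor of IGF action that the protease PAPP-A cleaves, had 2 tested probes. A_52_P257502 gave 2.75, 3.78 and 3.24 against 3.69, 3.75 and 3.82, a difference of -0.50 (SE 0.25), and A_51_P398971 gave 1.42, 2.24 and 1.61 against 2.30, 2.34 and 2.23, a difference of -0.54 (SE 0.21). Both Igfbp4 probes were lowest in labelled db/m replicate 1 and next lowest in replicate 3, and replicate 2 was level with labelled db/db. The first of them differed by -0.24 without labelled db/m replicate 1 and by -0.76 without replicate 2, and by -1.08 within slide 1.

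Podocyte markers ordered the labelled db/m arrays in the same way, with summed levels of 3.63, 4.93 and 4.27 against 4.10, 4.73 and 4.42 in labelled db/db. Those of the proximal tubule were 9.55, 10.05 and 9.68 against 9.90, 10.12 and 9.98. Those of the endothelium were 5.45, 4.99 and 5.50 against 5.25, 5.38 and 5.19. Among the endothelial markers, Kdr (2.25) and Ehd3 (2.29) had their lowest value in labelled db/m replicate 1, as Igfbp3 did, and the others did not. The part of these cell types in the Igfbp3 and Igfbp4 values was not tested. Igfbp7, with the probe A_51_P472292 (mm9 chr5:77778355-77778414), was the steadiest member: 8.20, 8.34 and 8.23 against 8.31, 8.33 and 8.32. Its difference was -0.06 (SE 0.10), and its sign turned to 0.07 under quantile normalization and its size to -0.25 under median centring. Over the 45 pairs of members the correlation across arrays ran from -0.96, between Igfbp5 and Igfbp7, to 0.97, with a median of 0.26, where pairs of arrays also share a slide.

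Of the ligand and receptors, Igf1 itself had a difference near 0. Its brightest probe A_55_P2085979 (transcript variant 2) gave 0.41, 0.31 and 0.18 in labelled db/m and 0.10, 0.21 and 0.67 in labelled db/db, a difference of -0.03 (SE 0.17). The groups overlapped, and the sign varied with the settings, from -0.26 to 0.15. The probe of transcript variant 1, A_51_P147942, gave -0.49, -1.82 and -0.79 against -1.09, -1.45 and -1.71, a difference of 0.38 (SE 0.35). The remaining Igf1 probe, A_52_P306327, was not tested. Igf1r, the receptor tyrosine kinase for IGF1, had 4 tested probes with differences of -0.45 (SE 0.30) for the brightest and -0.17, -0.15 and -0.08 for the others. The brightest, A_55_P2736764, gave 3.25, 3.35 and 2.43 against 3.47, 3.84 and 3.07, so that labelled db/m replicate 3 was lowest and the groups overlapped. Without that array the difference was -0.16, and within slide 1 it turned to 0.18.

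Ghr, the growth hormone receptor gene, gave different values by probe. In mice this gene is known to give a longer RNA for the full receptor and a shorter RNA for the secreted growth hormone binding protein. A_55_P2500473, annotated to transcript variant 2, gave 4.47, 4.65 and 4.42 in labelled db/m and 4.90, 5.04 and 4.73 in labelled db/db, a difference of -0.38 (SE 0.13). A_52_P680941, annotated to the same variant, gave 3.00, 3.04 and 2.80 against 3.31, 3.57 and 3.23, a difference of -0.42 (SE 0.13). Neither probe overlapped between groups. A_51_P499854, annotated to transcript variant 1, differed by 0.03 (SE 0.11), with 4.64, 4.69 and 4.47 against 4.50, 4.68 and 4.53, and A_52_P633550 by 0.00 (SE 0.20). The last probe is tied to neither variant by its annotation, and no test compared the probes. A difference was thus read by 2 of the 4 Ghr probes and was between -0.56 and -0.21 for the brightest under the 13 other settings.

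**Figure D3:**
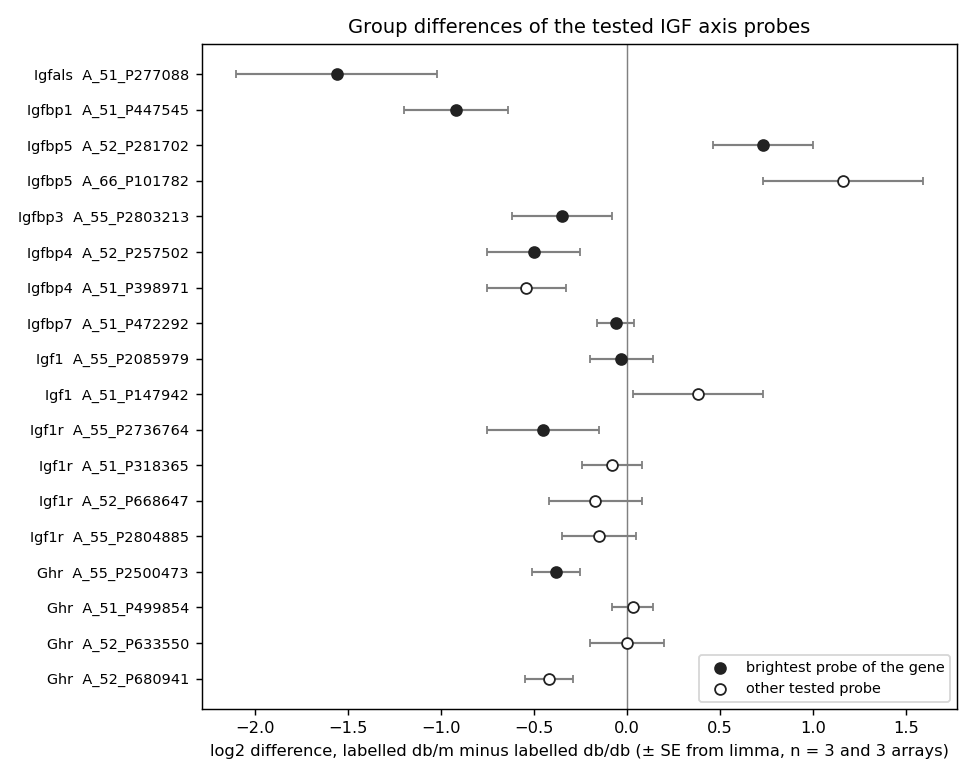
The 18 tested probes of the members are listed on the vertical axis by gene and probe, and the horizontal axis gives the log2 difference, labelled db/m minus labelled db/db, with bars of 1 SE from limma. Filled points are the brightest probe of a gene and open points its other probes, and they run from Igfals at -1.56 to an Igfbp5 probe at 1.16, with Igfbp7 and the variant 1 probe of Ghr near 0.

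Counted over the 9 tested members, each by its brightest probe, 8 were lower and 1 was higher in labelled db/m, with a median difference of -0.38 beside -0.04 over all genes. At a difference of at least 1 with an unadjusted p under 0.05, 1 member, Igfals, was lower, where 0.187% of all genes were, and 0 members were higher, where 0.777% were. Groups did not overlap for 3 lower members, Igfals, Igfbp1 and Ghr, beside 15.7% of genes, and for 1 higher member, Igfbp5, by less than 0.01, beside 7.18%. These counts come from the contrast on which the set was chosen, and nothing is read from them. No member passed at an adjusted p under 0.05, nor did any of the 29886 probes tested by limma, of which 5281 had an unadjusted p under 0.05. What is called the methods' t-test here, the equal-variance form to which one-way analysis of variance reduces, also gave 0 adjusted calls, with 4617 at an unadjusted p under 0.05. The paper names analysis of variance in general and no test for its arrays.

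**Figure D4:**
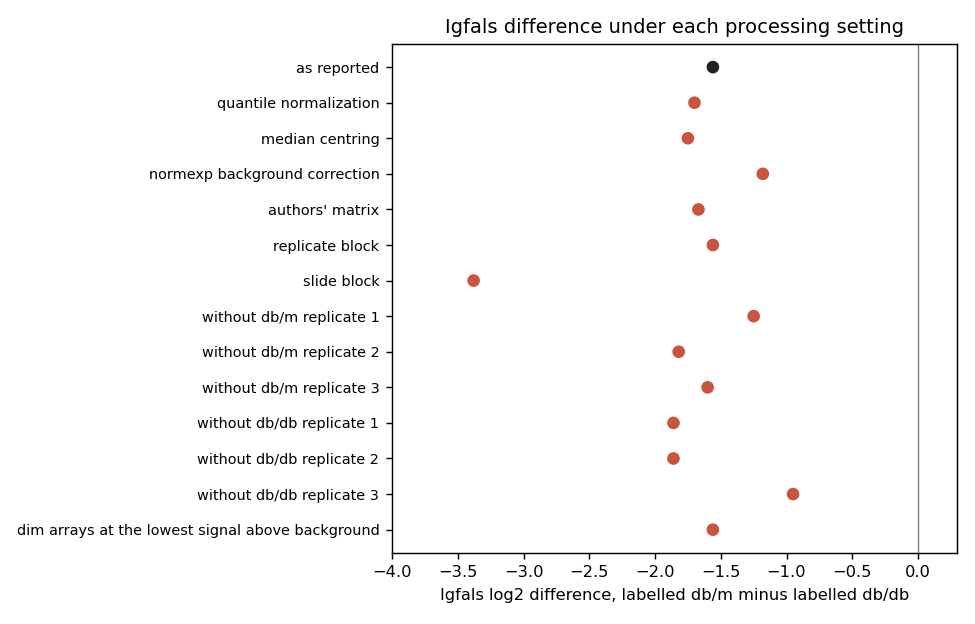
The Igfals difference, labelled db/m minus labelled db/db on the log2 scale, is on the horizontal axis, and each row is a processing setting, with the reported value of -1.56 in black. All values are below 0, from -3.38 within slide 1 to -0.95 without labelled db/db replicate 3. The groups did not overlap, so the sign could not turn within slide 1 or where an array was left out.

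The wider pathway was read from 29 other genes, of which 26 were tested and Igf2, Irs4 and Gh were not. Differences were above 0 for 13 and below 0 for 13, with a median of 0.02. Unadjusted p-values under 0.05 from limma were found for 3 higher genes and 1 lower gene, beside 6.15% and 9.46% of all genes. The count of higher genes includes Igf2bp1 and Igfbpl1, which passed the filter only through labelled db/m, so nothing is read from it. No gene of the list passed after Benjamini-Hochberg adjustment. The lower gene was Jak2, the kinase that the growth hormone receptor activates, at -0.43, -0.66 and -0.63 in labelled db/m and 0.09, -0.10 and -0.28 in labelled db/db. Its groups did not overlap, and its difference was -0.48 (SE 0.14, limma, adjusted p = 0.24). Jak2 kept an unadjusted p under 0.05 in 16 of 17 other settings, and within slide 1 its difference was -0.15. These settings reuse the same arrays, and the list was written with earlier results of these data known, so the tally is a description.

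Of the 3 higher genes, Socs1, an inhibitor of JAK kinases, was above background on all arrays. It gave -2.62, -2.81 and -2.44 against -2.85, -3.08 and -3.00, a difference of 0.35 (SE 0.14, limma, adjusted p = 0.266), and had an unadjusted p under 0.05 in 5 of 17 other settings. The other 2, Igf2bp1, which encodes a protein that binds messenger RNAs including that of Igf2, and Igfbpl1, a gene of binding protein-like sequence, passed the filter only through labelled db/m, where they were higher, so their tests are not used. Igf2bp1 gave -1.89, -3.15 and -2.17 in labelled db/m and -3.83, -3.08 and -3.45 in labelled db/db, with 2 of the latter arrays above background and overlapping groups. Igfbpl1 gave -3.09, -2.60 and -2.95 against -4.29, -4.65 and -3.04, with 1 of the latter above background. With the filter on all 6 arrays, 1 higher and 1 lower gene were left, Socs1 and Jak2. The transducers Stat5a and Stat5b and the target gene Socs2 had differences of 0.04 (SE 0.21), -0.03 (SE 0.10) and 0.04 (SE 0.11). Cish, another target gene of STAT5, was at 2.93 in labelled db/m replicate 1 and between 1.43 and 1.71 on the other 5 arrays.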

How the data were processed

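Total RNA of mouse renal cortex was labelled with Cy3 and hybridised to one-colour Agilent arrays, which the authors read with Agilent Feature Extraction 10.7.1.1, per the labels. The authors deposited the background-subtracted intensity of every spot and a matrix of log2 values that tracked the intensities (r of at least 0.99833). Here control spots and 135 probes with an outlier flag were left out, log2 intensities were centred on the 75th percentile of each array, and a probe was tested if the scanner software had it well above background in each of the 3 arrays of either group, in R 4.3.3 with limma 3.58.1 (lmFit, eBayes, Benjamini-Hochberg). The procedure was tested on simulated data. The brightest tested probe stood for a gene, and all member probes are named, with pathway genes at an unadjusted p under 0.05 and the 5 genes most correlated with Igfals. Members and lists were chosen with earlier results of these data known. Probe positions are those of the files, on mm9. The number of arrays limits the precision, and p-values measure the spread between 3 samples a group. Leaving Fgg out of the hepatocyte sum and an array out of the Lepr difference was chosen after seeing the data. Alternatives covered the normalization, background, filter, test, blocks and each array left out.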

Additional observations from a re-analysis of the deposited data

How the results depend on the processing

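The Igfals difference stayed below 0 under all 13 alternatives, from -1.86 to -0.95 when an array was left out, and was -3.38 with the slide as a block. Its groups did not overlap, so the sign could not turn when an array was left out or within slide 1. The replicate block and the setting for arrays not above background left the difference at -1.56, as they had to. At a difference of at least 1 and an unadjusted p under 0.05, the count of members (1) was 2 with median centring, with no filter, with the slide block and with any tested probe, 0 by the methods' t-test and 0 at an adjusted p, and 4 with no fold limit. It ran from 0 to 3 when an array was left out, with 0 when either array of slide 1 was left out and 3 without labelled db/m replicate 2. At an unadjusted p under 0.05 with no fold limit, the count of pathway genes (4) was 2 under quantile normalization, normexp, the authors' matrix, the filter on all 6 arrays and the methods' t-test, 8 with any tested probe, 0 at an adjusted p, and 1 to 8 when an array was left out. The highest count came without labelled db/m replicate 2 and the lowest without replicate 3. The count of 4 includes Igf2bp1 and Igfbpl1, which passed the filter only through labelled db/m. Signs turned for Igfbp7 (0.07 under quantile normalization and 0.07 in the authors' matrix), for Igf1r (0.18 with the slide block), for Igfbpl1 (-0.05 with the slide block) and for Igf1, whose -0.03 became 0.04 without labelled db/m replicate 3 and 0.15 without replicate 3 of labelled db/db. The cause was not tested. Median centring moved the median of all differences from -0.03 to -0.21, under which Igfals was at -1.75. Same-numbered arrays of the groups had correlations of 0.36, 0.15 and 0.05 in their deviations from the group means. Pairs with different numbers had correlations from -0.34 to 0.15. The labels give the arrays a shared number, and whether they were paired was not tested. With the replicate block 1 member and 4 pathway genes were called, and 6560 probes in place of 5281 had an unadjusted p under 0.05. Over all probes the number at an adjusted p under 0.05 was 0 as reported, 59 after removal of replicate 2 of labelled db/m and 123 when replicate 3 of labelled db/db was removed. The slide block rests on 1 pair of arrays.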
